A study of Mus musculus with 4 samples.

Results

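The genes described here are 9 transcripts of the endolysosomal protease system in mouse CD4+ T cell cultures. They are the 6 cathepsins Ctsb, Ctsd, Ctsh, Ctsl, Ctss and Ctsz, the legumain gene Lgmn and the cystatins Cst3 and Cstb. They were chosen by name, with earlier results of these data known. All 9 were found through their Ensembl IDs among the 38282 gene IDs that each of the 2 deposited tables lists. All 9 also passed the filter for testing, a mean level of at least 1 FPKM, which left 11423 genes. FPKM counts sequenced fragments per kilobase of transcript, scaled to the library, so levels of different genes can be set side by side.

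The cells were naive CD4+ T cells from the spleen of C57BL/6 mice, cultured under the Th0 condition alone (Th0) or with dopamine added (Th0+Dopa), and harvested on day 4. Cultures called Th0 are commonly activated without cytokines that steer a lineage. Each group holds 2 libraries, with the numbers 2 and 3, and the libraries of each number share a table. Not given in the sources used here are the dose of dopamine, the age and sex of the mice and the number of animals per culture. T cell genes were present in every library: Cd4 stood at 122 and 123 FPKM in Th0 and at 115 and 120 with dopamine, and Cd8a was at most 0.853 FPKM. Cd8b1, which encodes the other chain of the CD8 coreceptor, was at 3.76 and 3.34 FPKM in Th0 and at 5.98 and 4.19 with dopamine. Summed FPKM was 687066 and 715110 in the Th0 libraries and 880583 and 794873 with dopamine.

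Cathepsins are proteases that work mainly in the acidic endosomes and lysosomes. Most are papain-like cysteine proteases, while cathepsin D is an aspartic protease and legumain cuts after asparagine. They are made as inactive precursors, carried to the lysosome largely by mannose 6-phosphate receptors, and held in check by cystatins, which block the active site of papain-like enzymes. In antigen-presenting cells they trim antigens and the invariant chain of MHC class II molecules. Cathepsin S is best known for the last step of that trimming in dendritic cells, macrophages and B cells. T cells also hold lysosomes and use cathepsins in protein turnover and in granule maturation.

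RefSeq promoters on GRCm38.p6 (250 bases before to 50 after the start) were matched by symbol for 6 of the 9 genes. The genes not matched were Ctsb, Ctsh and Cstb, and Lgmn had 2 promoters. The promoters of Ctss (chr3:95526536-95526835, plus strand) and Ctsd (chr7:142387778-142388077, minus strand) are shown, because they are the highest of the protease transcripts in Th0, and Ctss was called lower with dopamine while Ctsd was not. Capitals mark matches to the motifs searched.
Ctss: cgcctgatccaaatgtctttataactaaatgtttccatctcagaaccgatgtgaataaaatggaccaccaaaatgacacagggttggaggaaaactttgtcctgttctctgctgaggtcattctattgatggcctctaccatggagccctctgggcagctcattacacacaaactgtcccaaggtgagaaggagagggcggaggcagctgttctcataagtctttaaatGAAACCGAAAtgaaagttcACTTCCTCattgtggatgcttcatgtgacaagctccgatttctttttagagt
Ctsd: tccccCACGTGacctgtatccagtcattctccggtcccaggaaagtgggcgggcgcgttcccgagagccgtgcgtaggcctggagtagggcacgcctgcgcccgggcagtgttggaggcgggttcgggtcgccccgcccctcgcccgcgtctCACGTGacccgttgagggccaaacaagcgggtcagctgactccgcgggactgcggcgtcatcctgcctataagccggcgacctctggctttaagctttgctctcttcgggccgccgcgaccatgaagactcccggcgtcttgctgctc
The motifs, searched on both strands, were the E-box CACGTG, the CLEAR consensus of lysosomal genes, which contains the E-box, the interferon response core (ISRE), the PU.1 core GAGGAAGT and the cAMP response element TGACGTCA. In Ctsd the capitals are E-boxes that begin at -245 and -98 from the start (position 0). In Ctss they are an interferon response core that begins at -21 and, on the opposite strand, a PU.1 core that begins at -2. An E-box also lay at -236 in Ctsl and at -49 in the second Lgmn promoter, so that 3 of the 6 genes held it. Of all 32851 promoters in the table, 7.15% held the E-box, 3.44% the interferon response core and 3.20% the PU.1 core. The CLEAR consensus (0.326% of all promoters) and the cAMP response element (1.79%) had no match in these 6 genes. These matches describe letters only. Binding was not measured.

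The comparison of Th0+Dopa with Th0 was made on bulk RNA of the T cell cultures, with and without dopamine. These libraries also held transcripts typical of basophils and myeloid cells. Mcpt8 stood at 142 and 187 FPKM in Th0 and 15.8 and 15.0 with dopamine, and Lyz2 at 121 and 136 against 14.3 and 13.3. The differences below are therefore not assigned to T cells. Cathepsin S, cathepsin H and cathepsin Z transcripts were lower with dopamine, and Ctss differed most. No difference was called for cathepsins B, D and L, legumain and both cystatins. Differences are given as log2(FPKM + 1), Th0+Dopa minus Th0, as the mean of the 2 within-table differences ± SE. This scale understates the change of genes with low levels. The test was limma with the table as a block, two-sided, and an adjusted p (Benjamini-Hochberg over all tested genes) under 0.05 was a call. Of the 9 genes, 3 were called lower, where 4.39% of all tested genes were called lower. None of the 9 was called higher by limma, where 6.28% of all genes were. At an unadjusted p under 0.05, 4 of the 9 were lower and 0 higher, where 12.2% of all tested genes were lower and 15.7% higher. Their median difference was -0.26, against 0.03 for all tested genes. A lower value with dopamine in each table was found for 6 of the 9 genes, and for 32.3% of all tested genes. Ctsd, 1 of these 6, was nearly level in replicate 2 (69.9 against 69.8 FPKM). The 9 genes were chosen with earlier results of these data known, so these shares describe the list and do not test it.

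**Figure D1:**
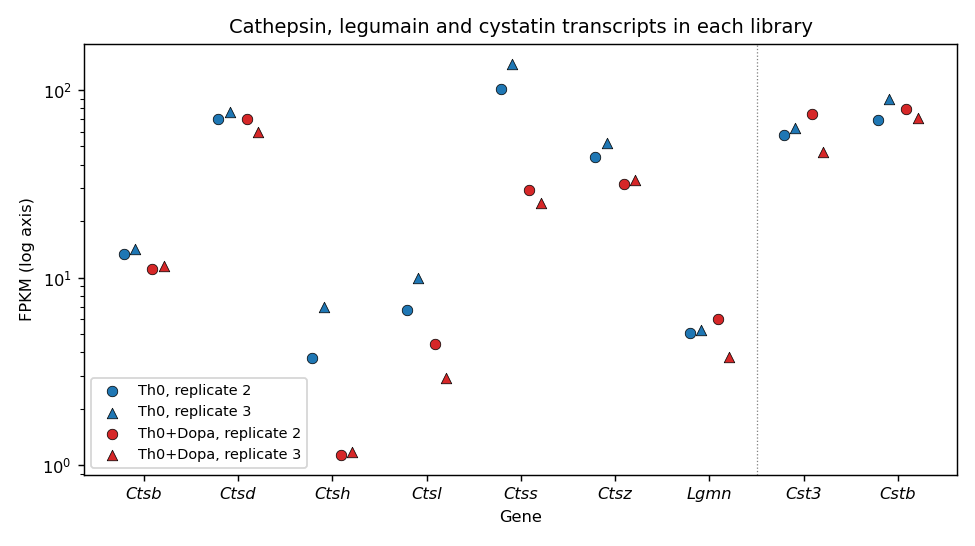
FPKM (log axis) of each of the 9 genes in each of the 4 libraries; circles are replicate 2, triangles replicate 3, blue Th0 and red Th0+Dopa, and the dotted line parts proteases from cystatins. The Th0 and Th0+Dopa points stand apart for Ctss, Ctsh and Ctsz, and also for Ctsl and Ctsb, which were not called. With 2 libraries per group, points can stand apart without a difference between the groups. The share of all tested genes that stand apart was not counted. They nearly meet for Ctsd and interleave for Cst3, Cstb and Lgmn.

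Ctss (ENSMUSG00000038642, chromosome 3, 95526786 to 95556403, GRCm38) encodes cathepsin S, a cysteine protease that stays active at neutral pH. Its level was 101.7 FPKM in Th0 replicate 2 and 138 in Th0 replicate 3, and 29.1 and 25.0 FPKM in the Th0+Dopa libraries of the same numbers. The Th0 libraries were both high and the groups did not overlap. The ratio of FPKM, Th0 over Th0+Dopa, was 3.49 in the first table and 5.54 in the second. On the log2 scale Ctss changed by -2.10 ± 0.17 (limma adjusted p = 0.00301). With any one library left out and no block, the difference lay between -2.30 and -1.90, and the adjusted p rose to between 0.108 and 0.178. No gene of the 9 was called in any of these fits on 3 libraries.

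Ctsh (ENSMUSG00000032359, chromosome 9, 90054152 to 90076089) encodes cathepsin H, which trims amino acids from the N terminus of proteins. It stood at 3.72 and 6.97 FPKM in Th0 replicates 2 and 3 and at 1.13 and 1.17 with dopamine. Both Th0 values were higher, but the level was low: an estimate from the spacing of low values puts it at about 21 and 29 fragments in Th0 and 6 and 7 with dopamine. Ctsh changed by -1.51 ± 0.29 (limma adjusted p = 0.0342). It did not pass without the block (adjusted p = 0.0635), without limma's trend (0.0765) or without the filter (0.0746).

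Ctsz (ENSMUSG00000016256, chromosome 2, 174427493 to 174439039) encodes cathepsin Z, also called cathepsin X, a carboxypeptidase. Its level was 44.0 and 52.0 FPKM in Th0 and 31.6 and 33.2 FPKM with dopamine, again without overlap. The change was smaller than that of Ctss, -0.55 ± 0.12 (limma adjusted p = 0.0438), a ratio of FPKM of 1.39 and 1.56 in the 2 tables. It did not pass without the block (adjusted p = 0.0882), the trend (0.153) or the filter (0.0621). The gene overlaps Nelfcd on the opposite strand, which stood at 14.8 and 15.6 FPKM in Th0 and at 24.3 and 17.5 with dopamine. No source names a strand setting for the counting, so the levels of overlapping genes are uncertain.

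Ctsl (ENSMUSG00000021477, chromosome 13, 64359337 to 64370890) encodes cathepsin L, an endopeptidase that in the thymus processes the invariant chain. It had 6.76 and 9.96 FPKM in Th0 and 4.41 and 2.92 FPKM with dopamine. The Th0 libraries were higher in both tables, by a ratio of 1.53 in the first and 3.41 in the second, so the size differed between the tables. The difference of -1.00 ± 0.28 did not pass (limma adjusted p = 0.0824, 95% interval -1.70 to -0.31). It passed when only protein-coding genes were tested (adjusted p = 0.0157), with a pseudocount of 0.1 (0.0491), after scaling to a common sum (0.0329) and after the same scaling without small RNA genes (0.0209).

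Ctsb (ENSMUSG00000021939, chromosome 14, 63122462 to 63145923) encodes cathepsin B, an abundant lysosomal cysteine protease in many cell types. It stood at 13.4 and 14.1 FPKM in Th0 and at 11.1 and 11.5 FPKM with dopamine. The values did not overlap but lay close, and the difference was -0.26 ± 0.15 (limma adjusted p = 0.309, 95% interval -0.63 to 0.11). Fdft1, a sterol synthesis gene that overlaps Ctsb on the opposite strand, was at 23.1 and 16.3 FPKM in Th0 and at 39.5 and 32.1 with dopamine.

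Ctsd (ENSMUSG00000007891, chromosome 7, 142375911 to 142388038) encodes the aspartic protease cathepsin D. Its level was 69.9 and 76.6 FPKM in Th0 and 69.8 and 59.4 FPKM with dopamine. The pair of replicate 2 was nearly level and the pair of replicate 3 was lower with dopamine. The difference was -0.18 ± 0.13 (limma adjusted p = 0.411, 95% interval -0.50 to 0.14). It was -0.43 with libraries scaled to a common sum, which put the median gene at -0.20 (limma adjusted p = 0.0749), -0.33 with small RNA genes also left out, and -0.31 to -0.05 with any one library left out, and was called in none of these. Within a library, the ratio of Ctss to Ctsd in FPKM was 1.45 and 1.80 in Th0 and 0.418 and 0.420 with dopamine. Ctss was thus the higher of the pair in both Th0 libraries and the lower in both libraries with dopamine.

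Lgmn (ENSMUSG00000021190, chromosome 12, 102394084 to 102439813) encodes legumain, which also cleaves cathepsin precursors. It had 5.07 and 5.27 FPKM in Th0 and 6.02 and 3.77 with dopamine. The Th0+Dopa values lay on either side of the Th0 values, and the difference was -0.09 ± 0.24 (limma adjusted p = 0.846, 95% interval -0.68 to 0.50).

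The inhibitors showed no called difference. Cst3 (ENSMUSG00000027447, chromosome 2, 148871722 to 148875692) encodes cystatin C, a secreted inhibitor made by many cells. It stood at 57.7 and 62.4 FPKM in Th0 and at 74.9 and 46.6 FPKM with dopamine, which is higher in the first table and lower in the second. Its 95% interval ran from -0.51 to 0.46. Cstb (ENSMUSG00000005054, chromosome 10, 78425669 to 78427622) encodes cystatin B, an inhibitor of the cytosol and nucleus. Its level was 69.1 and 89.8 FPKM in Th0 and 79.2 and 71.2 with dopamine, and the groups overlapped. The difference was -0.07 ± 0.15 (limma adjusted p = 0.815, 95% interval -0.44 to 0.31).

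**Figure D2:**
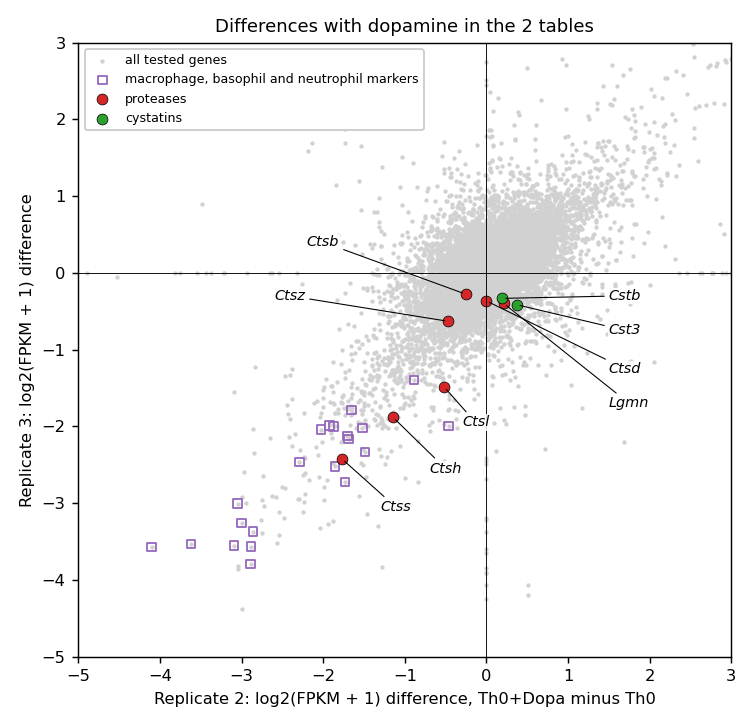
Difference in log2(FPKM + 1), Th0+Dopa minus Th0, in the table of replicate 2 (x) and in that of replicate 3 (y), for all tested genes (grey; 86 lie outside the axes), markers of macrophages, basophils and neutrophils (squares), the 7 proteases (red) and the 2 cystatins (green). Ctss, Ctsh and Ctsl lie furthest to the lower left of the 9 genes, while Cst3, Cstb and Lgmn lie right of 0 on the x axis and below 0 on the y axis.

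The order of the levels also differed between the groups. In both Th0 libraries Ctss was the highest of the 9 genes. Cstb and Ctsd came next, and their Th0 values overlapped. Cst3, Ctsz and Ctsb followed without overlap between neighbours, and at the low end the range of Ctsh overlapped those of Ctsl and Lgmn. With dopamine Cstb was highest in both libraries, with a range that overlapped that of Cst3. Ctss had fallen in both to the place just under Ctsz. Ctsh was lowest in both libraries with dopamine.

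Summed over the 7 proteases, the level was 245 and 303 FPKM in Th0 and 153 and 137 FPKM with dopamine. Ctss made up 41.6% and 45.6% of that sum in Th0 and 19.0% and 18.2% with dopamine. The share of Ctsd was 28.6% and 25.3% in Th0 and 45.6% and 43.4% with dopamine. Without Ctss the protease sum was 143 and 165 FPKM in Th0 and 124 and 112 FPKM with dopamine, so most of the difference in the sum lay in Ctss. The 2 cystatins summed to 127 and 152 FPKM in Th0 and to 154 and 118 FPKM with dopamine. The ratio of the 7 protease to these 2 cystatin transcripts was 1.93 and 1.99 in Th0 and 0.994 and 1.16 with dopamine. Its size depends on the genes listed. It leaves out the cystatin gene Cst7, which alone had 198 and 197 FPKM in Th0 and 160 and 138 with dopamine. It also counts Ctsd, which is an aspartic and not a papain-like protease. These sums were described and not tested.

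**Figure D3:**
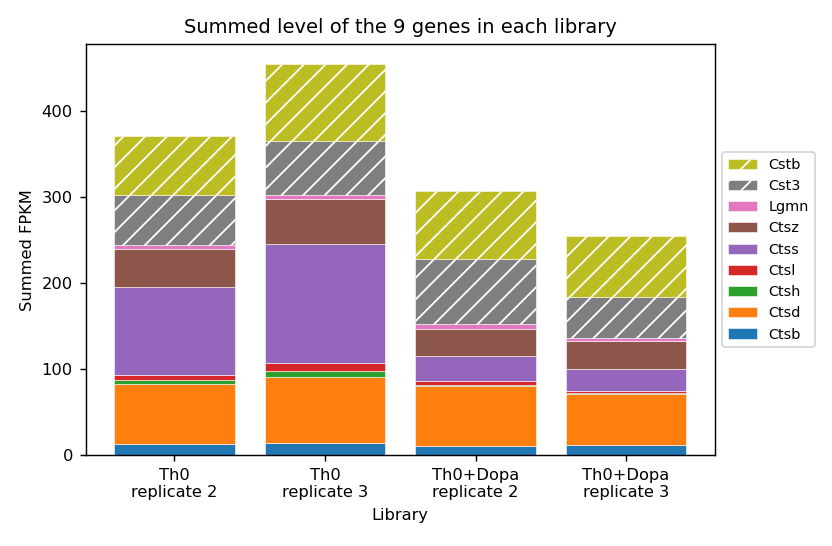
Summed FPKM of the 9 genes in each of the 4 libraries as stacked bars, with the cystatins hatched. The purple Ctss block shrinks from 102 and 138 FPKM in Th0 to 29.1 and 25.0 FPKM with dopamine, while the orange Ctsd block spans 59.4 to 76.6 FPKM over all libraries.

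Markers of myeloid cells, basophils and platelets fell with these proteases. Of 21 macrophage and dendritic cell markers, 11 were tested and 10 fell (median -1.94), where 4.39% of all tested genes were called lower. The filter took the mean of all 4 libraries. Markers under 1 FPKM with dopamine, such as Csf1r (0.280 and 0.199) and Mrc1 (0.315 and 0.455), thus passed only through their Th0 level. The count of falls, the median and the ratios of FPKM of these markers are therefore partly set by the filter. The sum of all 21 stood at 202 and 261 FPKM in Th0 and at 25.7 and 28.3 with dopamine. C1qa, C1qb, C1qc, Clec9a and Siglech were listed at 0 in both libraries with dopamine and were at most 0.844 FPKM in Th0, where C1qc and Clec9a were also at 0 in replicate 2. Cd209a was listed at 0 in all 4. Of 10 basophil and mast cell markers, 6 were tested and all 6 fell, with sums of 368 and 492 FPKM in Th0 and 47.5 and 42.4 with dopamine. Of 10 neutrophil markers 3 of 4 tested fell (94.8 and 128 FPKM against 6.54 and 7.04), and of 4 platelet markers all 3 tested fell (60.5 and 70.5 FPKM against 14.4 and 16.9). The share of 4.39% of all tested genes stands beside these counts too, and the filter can favour falls here as well. Prtn3, at 0.702 and 0.231 FPKM with dopamine, passed only through its Th0 level. S100a9 (0.822) and Mpo (0.719) were under 1 FPKM in Th0+Dopa replicate 2. Of 6 B cell markers 2 were tested (Ighm 0.40, Cd79b 0.28), and of 6 NK and CD8 T cell markers 1 (Cd8b1, 0.41). Limma called none of these 3, and at an unadjusted p under 0.05 Ighm was higher. T cell markers had a median of 0.11, with 3 of 14 higher and 1 lower, where 6.28% of all tested genes were called higher and 4.39% lower. The ratio of Ctss to the summed macrophage list was 0.504 and 0.531 in Th0 and 1.13 and 0.882 with dopamine. Lyz2 alone made up 121 and 136 FPKM of that list in Th0. On the log2(FPKM + 1) scale the list's median was -1.94, against -2.10 for Ctss, but this scale understates low genes. By ratio of FPKM, Th0 over Th0+Dopa, every tested marker of that list exceeded Ctss (3.49 and 5.54) in both replicates. The lowest marker ratios were 4.06 (Adgre1, replicate 2) and 6.03 (Itgax, replicate 3). Some of these ratios rest on few fragments, by estimate 15 in Th0 and 4 with dopamine for Adgre1 in replicate 2. For Ctss the estimates were 830 and 234. The filter favours high marker ratios, so this comparison does not show that the markers fell more than Ctss. The ratio of Ctss to the summed platelet list was 1.68 and 1.96 in Th0 and 2.02 and 1.48 with dopamine, so it overlapped between the groups. The ratios to the other summed lists did not overlap. To the basophil and mast cell list the ratio was 0.276 and 0.281 in Th0 and 0.613 and 0.589 with dopamine. To the neutrophil list it was 1.07 and 1.08 in Th0 and 4.45 and 3.55 with dopamine. Fcer1g of the macrophage list is also expressed by basophils and mast cells. The part of these cells in the differences of Ctss, Ctsh and Ctsz was not tested. In bulk samples fewer cells of a type and less RNA per cell cannot be told apart.

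Among the other cathepsins, 7 of 17 listed genes passed the filter and 1 fell, where 4.39% of all tested genes were called lower. That gene, Ctsg, encodes cathepsin G, a serine protease of neutrophil, mast cell and basophil granules that is related to the chymases and not to the papain-like enzymes. Ctsg went from 69.6 and 91.1 FPKM in Th0 to 11.2 and 9.68 FPKM with dopamine (-2.82 ± 0.17, limma adjusted p = 0.00110), a larger difference than that of Ctss. Ctsk, the collagen-degrading cathepsin of osteoclasts, was at 1.84 and 2.60 FPKM against 0.335 and 0.332 FPKM, and its difference of -1.26 ± 0.34 did not pass (limma adjusted p = 0.0735). It passed with the common sum (-1.38, limma adjusted p = 0.0393), with small RNA also left out (0.0181) and with protein-coding genes only (0.00703), and was -2.40 with a pseudocount of 0.1.

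The other cathepsins had no called difference. Ctsc, which activates granzymes, had 52.5 and 51.3 FPKM in Th0 and 52.4 and 54.5 FPKM with dopamine (0.04 ± 0.11, limma adjusted p = 0.854). Ctsw, a cathepsin of cytotoxic lymphocytes, had 3.46 and 4.26 FPKM against 4.95 and 4.90 FPKM (0.29 ± 0.22, adjusted p = 0.435). Ctsa, the protective protein of lysosomal sialidase and galactosidase, had -0.25 ± 0.13 (adjusted p = 0.258), Ctso -0.31 ± 0.29 (0.544) and Ctse -0.32 ± 0.31 (0.556). Ctsf stayed under the filter, and Ctsj, Ctsr, Cts3, Cts6, Cts7 and Ctsll3 were listed at 0 in all 4 libraries.

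Cystatin F had the highest transcript level of the listed cystatins. Its gene Cst7, the only other cystatin that passed the filter of 14 found in the tables, had 198 and 197 FPKM in Th0 and 160 and 138 FPKM with dopamine. Cystatin F enters the endolysosome and restrains cathepsin C there. Both Th0 values were higher, but the difference of -0.41 ± 0.11 did not pass (limma adjusted p = 0.0713, 95% interval -0.68 to -0.14). It passed with the common sum (-0.66, limma adjusted p = 0.0108), with small RNA also left out (-0.56, 0.00444), with protein-coding genes only (0.0210) and after the GC and length correction (0.0479). The other 13 had at most 1.38 FPKM in any library, and 7 of them were listed at 0 in all 4.

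Calls in the wider lysosome went in both directions. Of 121 listed genes in the lists of other cathepsins and cystatins, hydrolases, membrane proteins, the proton pump, sorting and regulators, 94 were tested. Of these 2 rose (2.13%, against 6.28% of all tested genes) and 6 fell (6.38%, against 4.39%), with a median of -0.10. Among 34 hydrolases and activators (median -0.10), the serine carboxypeptidase Scpep1 rose by 0.73 ± 0.16 (11.4 and 11.3 FPKM in Th0, 21.9 and 17.3 with dopamine), a call lost with libraries scaled to a common sum (0.49, limma adjusted p = 0.122). Psap, the precursor of the saposins that help degrade sphingolipids, fell from 47.9 and 57.3 FPKM to 20.2 and 24.7 FPKM (-1.20 ± 0.12, limma adjusted p = 0.00466).

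Of 18 lysosomal membrane genes (median -0.22) 2 fell, where 4.39% of all tested genes were called lower and 6.28% higher. The tetraspanin Cd63, also a marker of basophil and mast cell granules, went from 19.4 and 33.9 FPKM to 3.12 and 3.55 FPKM (-2.62 ± 0.21, limma adjusted p = 0.00270). Lamp1, a major coat protein of the lysosomal membrane, went from 96.6 and 97.0 FPKM to 63.4 and 62.6 FPKM (-0.61 ± 0.10, limma adjusted p = 0.0236). Of 17 proton pump genes (median 0.03) the subunit Atp6v1g1 rose by 0.58 ± 0.12 (limma adjusted p = 0.0398) and the accessory protein Atp6ap1 fell (-0.62 ± 0.13, adjusted p = 0.0437). With libraries scaled to a common sum Atp6v1g1 was not called (0.33, limma adjusted p = 0.156). Scpep1, Atp6v1g1 and Atp6ap1 also lost their calls without the block, the trend or the filter, and Psap and Lamp1 lost theirs without the trend.

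No gene of enzyme sorting was called among 11 tested by limma, and at an unadjusted p under 0.05, 1 was higher and 3 lower. Of all tested genes, limma called 6.28% higher and 4.39% lower, so few calls could be looked for in lists this short. At an unadjusted p under 0.05, 15.7% of all tested genes were higher and 12.2% lower. Of 6 regulators, Tfec, a myeloid member of the MITF and TFE family, went from 7.81 and 13.1 FPKM to 1.28 and 1.18 FPKM (-2.32 ± 0.27, limma adjusted p = 0.00766). Its relative Tfeb, the main activator of lysosomal genes, had 4.25 and 5.53 FPKM in Th0 and 6.51 and 3.84 with dopamine (0.04 ± 0.28, adjusted p = 0.941). In the class II pathway, which cathepsins serve, H2-Aa, H2-Ab1 and H2-Eb1 fell by 1.55, 1.53 and 1.26 on the log2 scale among 8 tested genes (limma adjusted p at most 0.00814), and H2-Eb1 lost its call without the trend. Cd74, the invariant chain, went from 12.7 and 16.1 to 6.86 and 10.4 FPKM (-0.69 ± 0.16, adjusted p = 0.0530) and did not pass.

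**Figure D4:**
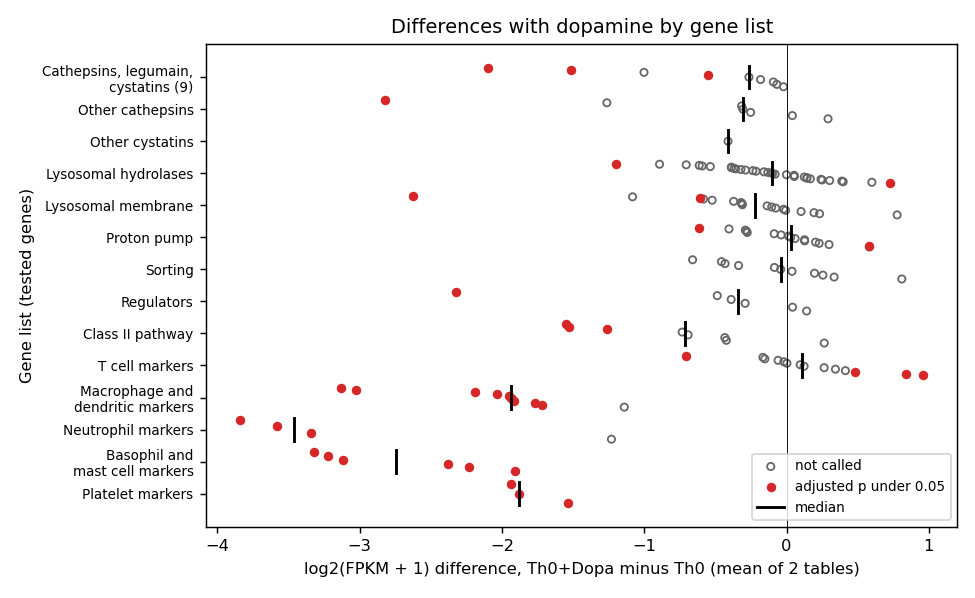
Difference in log2(FPKM + 1), Th0+Dopa minus Th0, of each tested gene (points; red where limma's adjusted p was under 0.05) in each gene list, with the list's median as a black bar. The 9 genes spread from -2.10 to -0.02, the lists of lysosomal hydrolases, proton pump and sorting centre near 0, and the myeloid and platelet marker lists lie to the left.

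Genes whose pair of within-table differences lay nearest to those of Ctss, Ctsh and Ctsl were taken from the tested protein-coding genes, by Euclidean distance over the 2 tables. For Ctss (-1.77 and -2.42 in the 2 tables) they were Hgf at a distance of 0.0141, Fpr2 at 0.115 and Fcgr3 at 0.129. For Ctsh (-1.15 and -1.88) they were Ear1 at 0.0575, Angpt1 at 0.0619 and Rgcc at 0.0660. For Ctsl (-0.52 and -1.48) they were Nbdy at 0.0439, Inpp1 at 0.0786 and Nucb2 at 0.107. With 2 differences per gene, many genes lie close together by such a measure.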

How the data were processed

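RNA was measured in 4 libraries, 2 of Th0 and 2 of Th0+Dopa cultures. Per the labels' protocols, the kit made stranded libraries of total RNA from which ribosomal RNA and globin mRNA were depleted. The authors deposited FPKM values in 2 tables made separately. The build is mm10 and the tools are STAR 2.4.2, Cufflinks 2.2.1, Trimmomatic 0.35, FastQC 0.10.1 and bcl2fastq 1.8.4, per the submitters' processing notes. Their annotation, normalization options and use of strand are not stated there. GENCODE M21 (GRCm38) named 36423 of the 38282 IDs.

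Log2(FPKM + 1) of genes averaging 1 FPKM or more was tested with limma 3.58.1 in R 4.3.3, with eBayes' trend. The table (also the replicate number) was a block. Residual degrees of freedom were 1 per gene, plus 4.70 from the prior. The script was tested on simulated data. The labels do not say whether the libraries stem from separate cultures or animals. The p-values therefore reflect the spread of these samples alone, and that spread may be technical.

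Low values of single-transcript genes, taken as multiples of 1 fragment on 1 kb, gave 1 fragment as 0.149 FPKM (Th0 2), 0.154 (Th0+Dopa 2), 0.199 (Th0 3) and 0.151 (Th0+Dopa 3). Within a tolerance of 0.15 fragment, 89.3% to 90.5% of them were whole. The spacing was picked as the one that made this share largest. The 30% that a fixed spacing would give by chance is therefore not a like baseline. Scaling would also move these values, so depth is an estimate.

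The 9 genes and the 16 gene lists were chosen with earlier results of these data known. Named genes were all 9, the tested other cathepsins and cystatins, up to 3 calls in each direction of each further lysosomal or class II list, and the 3 nearest genes of the 3 members with the largest differences. Marker genes, Tfeb and Cd74 were named beside them. Alternatives varied the pseudocount, the filter, the scaling, the genes tested, limma's trend and the block, and left out each library. A correction for GC content and length was added after the data were seen.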

Additional observations from a re-analysis of the deposited data

How the results depend on the processing

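Over all tested genes, 717 were called higher and 501 lower. These counts were 375 and 1070 with libraries scaled to a common sum, which put the median gene at -0.20, and 624 and 1247 when small RNA genes were removed before scaling (median -0.11). They were 446 and 402 after the GC and length correction, 442 and 298 with no filter, 256 and 240 with no replicate block, 106 and 150 without limma's trend, and 1077 and 907 with protein-coding genes only. Of the 9 genes, 1 (Ctss) was called lower with no filter, no replicate block or no trend, against 3 in the fit reported and 2 to 4 in the other fits that kept all libraries. With any one of the 4 libraries left out, 0 to 1 of all tested genes were called higher and 0 to 2 lower. Of the 9 genes, 0 were called higher and 0 lower in these fits. Each leaves a lone library in a group, so the lack of calls cannot show whether the differences hold. These fits had no block, were scaled by the median of ratios, and assumed that a lone library varies like the other group.

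In every fit that tested them, the differences of Ctsb, Ctsd, Ctsh, Ctsl, Ctss and Ctsz kept their sign (Ctsh was not tested at a mean FPKM of at least 5). With a library left out, Lgmn ranged from -0.39 to 0.20, Cst3 from -0.37 to 0.33 and Cstb from -0.24 to 0.10, each changing sign. Ctsc had -0.21 with the common sum and -0.10 when small RNA was also removed, shifts near those of the median gene. Of 20 named calls, 12 held with no replicate block, 9 without the trend, 18 after the GC and length correction and 18 with the common sum. The deviations of libraries with the same number correlated at 0.0869 across genes, so the block stands for the table and not for a shown pairing of cultures. Depth limits low genes such as Ctsh and Ctsk, whose levels with dopamine come from few fragments.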
